A study of Mus musculus with 6 samples.

Results

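Extracellular nucleotides and their breakdown products are sensed in microglia by a small set of receptors, and this account follows 8 genes of that set in the mouse somatosensory thalamus 14 days after an injury: the G protein-coupled receptors P2ry12, P2ry13, P2ry6, Gpr34 and Adora3, the ATP-gated channels P2rx4 and P2rx7, and the ectonucleotidase Entpd1. They were chosen by name, with earlier results of these data known, and are 8 of 26554 features in the deposited tables. The tissue was the ventral posterolateral and posteromedial nuclei (VPL/VPM) of wild-type (WT) C57 mice, in 2 groups of 3 libraries. One group had received 10 nL of type IV collagenase (0.01 U) into the right side, which causes a small haemorrhage used as a model of central post-stroke pain, and the other 10 nL of saline. Both groups were taken at 14 days, so the injection itself was shared, and no uninjected tissue was analysed here. Neither the animals' age nor the number behind each library is in the labels, and p-values measure the spread between these libraries only.

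ATP leaks from damaged cells and is cut by ectonucleotidases to ADP, AMP and then adenosine. In microglia, ATP opens the channels encoded by P2rx4 and P2rx7, ADP acts on P2ry12 and P2ry13, UDP acts on P2ry6 and adenosine acts on Adora3. Signals through P2ry12 draw microglial processes toward a damaged spot, P2ry6 promotes phagocytosis, and P2rx7 drives the NLRP3 inflammasome. Gpr34 is grouped with the P2Y receptors by sequence but responds to lysophosphatidylserine, a lipid.

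P2ry12 and P2ry13 are neighbours on chromosome 3, and their promoters are shown because these genes had the smallest fold changes of the 8. Both had their highest saline level in the same library, as did P2ry6, P2rx4 and Entpd1. The stretches run from 250 bases before to 50 bases after the RefSeq start, on the minus strand of GRCm38.p6, at chr3:59262936-59263235 for P2ry12 and chr3:59210833-59211132 for P2ry13. Capitals mark AGGAAG, which holds GGAA, the core bound by ETS factors such as PU.1, a factor of myeloid cells. Binding to these stretches was not tested.
P2ry12 promoter: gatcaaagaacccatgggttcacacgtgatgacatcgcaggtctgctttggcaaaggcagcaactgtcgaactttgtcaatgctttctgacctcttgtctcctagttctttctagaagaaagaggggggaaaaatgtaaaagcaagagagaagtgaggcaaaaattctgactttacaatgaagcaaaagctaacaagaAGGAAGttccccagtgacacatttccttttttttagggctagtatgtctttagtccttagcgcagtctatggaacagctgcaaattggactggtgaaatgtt
P2ry13 promoter: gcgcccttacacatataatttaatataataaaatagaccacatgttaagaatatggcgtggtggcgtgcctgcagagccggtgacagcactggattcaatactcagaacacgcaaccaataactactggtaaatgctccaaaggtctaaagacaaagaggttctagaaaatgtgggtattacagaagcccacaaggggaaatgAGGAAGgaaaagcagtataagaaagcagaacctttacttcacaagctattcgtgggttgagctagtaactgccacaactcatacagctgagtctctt
Each held AGGAAG 1 time, on the strand of the gene, beginning 52 bases before the start in P2ry12 and 47 bases before it in P2ry13. Searched on both strands, AGGAAG occurred in 5 of 8 promoters listed for 6 of the members, and in 35.4% of all 32851 promoters in the RefSeq table. The longer GAGGAAGT was found in 2 of the 8, those of Adora3 and the second of P2rx7, against 3.20% of all promoters; every GAGGAAGT also contains AGGAAG. The interferon-type motif, GAAA and GAAA with 2 bases of any kind between them, was in 0 of the 8, against 3.44% of all promoters. P2ry6 and Gpr34 were not matched in the table.

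Total counts were 33603076 to 44815451 per library, and levels are given as CPM, the count scaled to library size with edgeR's TMM factors. Saline replicate 3 stood apart from the other saline libraries: its TMM scaling factor was 0.898, the lowest of the 6. Its P2ry12, P2ry13, P2ry6, P2rx4 and Entpd1 levels were the highest in saline, and its Gpr34 and P2rx7 levels were the lowest. Adora2a, an adenosine receptor gene abundant in the striatum, measured 16.1, 3.98 and 3.63 CPM in collagenase replicates 1, 2 and 3, against 4.596, 4.567 and 50.1 CPM in saline replicates 1, 2 and 3. What sets that library apart was not tested.

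At 14 days 1 of the 8 genes, P2ry6, was higher after collagenase by the edgeR quasi-likelihood test. P2ry12, the most abundant of the 8, and P2ry13 overlapped between the groups, and the other 5 lay above every saline library without passing the test. All 8 were abundant enough to be tested. In comparison, 2.12% of 17240 tested genes passed as higher at a Benjamini-Hochberg adjusted p under 0.05 and 0.29% as lower. Run on the same counts, DESeq2 also called P2ry6 alone among the members (adjusted p 4.95e-06), with 3.09% of 19676 genes called higher. All 8 fold changes were above 1, as were 46.6% of those of all tested genes. The median log2 fold change was 0.48 over the 8 members and -0.02 over all tested genes. In 6 of the 8 the groups did not overlap, with collagenase higher, as in 10.1% of all tested genes. Because the 8 were chosen with earlier results of these data known, these comparisons with all tested genes are a description only. In bulk tissue a change in the number of cells of a type and a change in RNA per cell cannot be told apart.

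**Figure D1:**
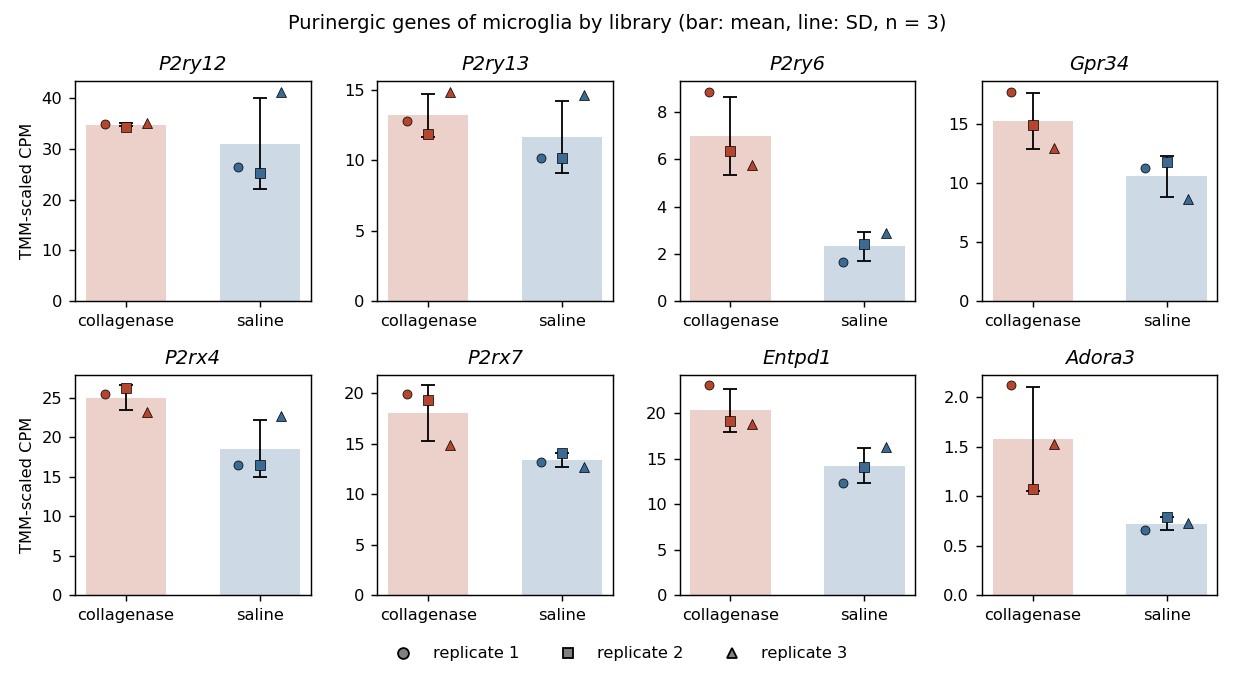
Levels of the 8 genes in each library, in TMM-scaled CPM (y axis from 0), with collagenase left of saline; bars are means and black lines the SD over 3 libraries. P2ry6 lies between 5.78 and 8.86 CPM after collagenase and between 1.67 and 2.87 CPM after saline, and saline replicate 3 (triangle) holds the highest P2ry12 value, 41.2 CPM.

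The UDP receptor gene P2ry6 measured 8.86, 6.34 and 5.78 CPM in collagenase replicates 1, 2 and 3, against 1.67, 2.41 and 2.87 CPM in saline replicates 1, 2 and 3. The lowest collagenase library was above the highest saline library. The collagenase libraries averaged 6.996 ± 1.64 CPM and the saline libraries 2.32 ± 0.609 CPM (SD, n = 3 per group). The log2 fold change was 1.60, its standard error (SE) 0.27, its 95% interval 0.99 to 2.21 and its edgeR adjusted p 0.0222. This is a 3.03-fold rise, with an interval of 1.99 to 4.62. The gene lies on chromosome 7, 100937630 to 100974649, minus strand (GRCm38), and shares 0 exonic bases with Gm44545, the annotated gene it overlaps. The call depended on single libraries: the edgeR adjusted p was 0.0794, 0.0719 and 0.0566 without collagenase replicate 1, 2 and 3, and 0.1 without saline replicate 1. It was 0.0455 without saline replicate 2 and 0.0149 without saline replicate 3, and the log2 fold change stayed between 1.39 and 1.78.

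P2ry12, the ADP receptor that marks resting microglia, measured 34.9, 34.3 and 35.0 CPM in the collagenase replicates, against 26.4, 25.3 and 41.2 CPM in the saline replicates. The collagenase libraries lay close together, with a coefficient of variation of 1.04%, against 28.8% in saline. They lay between the saline libraries, of which replicate 3 was the highest. The log2 fold change was 0.17 (SE 0.18), with a 95% interval from -0.25 to 0.58 (edgeR adjusted p 0.809). A change was thus not detectable in these libraries, and the interval covers folds between 0.840 and 1.499. With saline replicate 3 left out, P2ry12 passed at a log2 fold change of 0.43, with an edgeR adjusted p of 0.0352; the lowest value on leaving out a library was 0.04.

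P2ry13, the other ADP receptor gene, measured 12.8, 11.9 and 14.9 CPM in the collagenase replicates, against 10.2, 10.2 and 14.6 CPM in the saline replicates. Saline replicate 3 again stood with the collagenase libraries, and the groups overlapped. Its log2 fold change was 0.18 (SE 0.18, 95% interval -0.24 to 0.59, edgeR adjusted p 0.788), and 0.37 without saline replicate 3 (edgeR adjusted p 0.187). P2ry12 (59216272 to 59262871) and P2ry13 (59207892 to 59210882) lie on the minus strand of chromosome 3, inside the span of Med12l on the plus strand. The labels give no step that marks the strand, but shared exonic sequence was small: 9 bases of P2ry12, which is 0.353% of its exonic length, and 0 of P2ry13. Med12l itself measured 46.5 ± 1.35 CPM after collagenase and 45.8 ± 5.66 CPM after saline (SD, n = 3 per group), with a log2 fold change of 0.02 (SE 0.11). The ratio of P2ry13 to P2ry12 within a library averaged -1.40 ± 0.152 on the log2 scale in collagenase and -1.39 ± 0.0936 in saline libraries (SD, n = 3 per group).

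Other genes of the same cluster had separate values. P2ry14, a receptor for UDP-sugars, measured 6.002 ± 1.25 CPM after collagenase and 4.58 ± 1.17 CPM after saline (SD, n = 3 per group) and did not pass. Gpr171, another G protein-coupled receptor gene, had too few counts to be tested: 37 counts over the collagenase libraries and 2 over the saline libraries. Scaled by library this is a ratio of 16.9, with an exact 95% counting interval of 4.36 to 145; such intervals cover counting error only, since reads copied by PCR are not separate molecules. Igsf10, an immunoglobulin family gene on the neighbour list, was higher after collagenase, at 12.5 ± 0.377 CPM against 6.91 ± 1.18 CPM in saline, with a log2 fold change of 0.86 (SE 0.16, edgeR adjusted p 0.0322).

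Gpr34, the lysophosphatidylserine receptor gene, measured 17.7, 14.9 and 12.98 CPM in the collagenase replicates, against 11.3, 11.8 and 8.59 CPM in the saline replicates. The groups did not overlap, and saline replicate 3, the highest for P2ry12, was the lowest for Gpr34. The log2 fold change was 0.53 (SE 0.17, 95% interval 0.13 to 0.93) and did not pass, with an edgeR adjusted p of 0.242. Gpr34 lies on chromosome X, 13632089 to 13640858, plus strand, within the span of Cask on the minus strand, with which it shares 0 exonic bases; Cask measured 67.0 ± 2.53 CPM after collagenase and 68.7 ± 4.65 CPM after saline (SD, n = 3 per group). Of the lipid's own genes, Pla1a, a phospholipase that forms lysophosphatidylserine, was higher after collagenase. It averaged 2.74 ± 0.306 CPM after collagenase and 1.06 ± 0.0790 CPM after saline (SD, n = 3 per group), with a log2 fold change of 1.37 (SE 0.24, edgeR adjusted p 0.0256). Abhd16a and Abhd12, a lipase that makes the lipid and one that degrades it, had log2 fold changes of -0.05 and 0.02 and did not pass.

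The ATP-gated channel genes lie next to each other on the plus strand of chromosome 5, P2rx7 at 122643911 to 122691432 and P2rx4 at 122707544 to 122729738. P2rx4, a channel found largely in lysosomes, measured 25.5, 26.3 and 23.3 CPM in the collagenase replicates, against 16.4, 16.5 and 22.8 CPM in the saline replicates. The lowest collagenase value was just above saline replicate 3, and the other saline libraries were well below. The log2 fold change was 0.43 (SE 0.15, 95% interval 0.09 to 0.78, edgeR adjusted p 0.273); without saline replicate 3 it was 0.60 and passed (edgeR adjusted p 0.0219).

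P2rx7, the channel that opens at high ATP, measured 19.9, 19.4 and 14.9 CPM in the collagenase replicates, against 13.2, 14.1 and 12.7 CPM in the saline replicates. The groups did not overlap, although collagenase replicate 3 was close to the saline libraries. Its log2 fold change was 0.43 (SE 0.14, 95% interval 0.10 to 0.76), with an edgeR adjusted p of 0.241, and it did not pass on leaving out any of the 6 libraries. Its exons hold the 119 bases of Mir8115, 1.99% of its exonic length. Camkk2, the gene beyond P2rx4, measured 66.3 ± 4.10 CPM after collagenase and 87.0 ± 10.3 CPM after saline (SD, n = 3 per group), and its log2 fold change of -0.39 did not pass (edgeR adjusted p 0.172).

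Entpd1, the enzyme that cuts ATP and ADP to AMP, lies on chromosome 19, 40612366 to 40741602, plus strand. It measured 23.0, 19.1 and 18.8 CPM in the collagenase replicates, against 12.3, 14.1 and 16.2 CPM in the saline replicates. All collagenase libraries were above all saline libraries. The log2 fold change was 0.52 (SE 0.15, 95% interval 0.18 to 0.85, edgeR adjusted p 0.160), the smallest adjusted p among the 7 members that did not pass. It was 0.62 and passed without saline replicate 3 (edgeR adjusted p 0.0415). Endothelial cells also express Entpd1. Of 5 endothelial markers 0 passed by edgeR (0 at an unadjusted p under 0.05 and 0 by DESeq2). Their summed levels were 194 to 197 CPM in collagenase libraries and 173 to 196 CPM in saline libraries. The log2 fold change was above 0 in 4 of the 5, against 46.6% of all tested genes, and was -0.25 for Cldn5. The part of endothelial cells in the Entpd1 level was not tested.

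Adora3, an adenosine receptor gene, was the least abundant member, with 101, 40 and 59 counts in the collagenase replicates, against 29, 27 and 25 counts in the saline replicates. These are 2.12, 1.08 and 1.53 CPM after collagenase and 0.653, 0.785 and 0.733 CPM after saline. The groups did not overlap, but the collagenase libraries spread widely around their mean. The log2 fold change of 1.13 was the second largest of the 8, with an SE of 0.33, an interval at the 95% level of 0.36 to 1.89 and an adjusted p by edgeR of 0.179. On log2(FPKM + 1), a scale that compresses the changes of low genes, it was 0.36, below those of Gpr34 (0.54), Entpd1 (0.48), P2rx4 (0.40) and P2rx7 (0.37). Adora3 lies on chromosome 3, 105870858 to 105908926, plus strand, and shares 779 exonic bases, 20.9% of its exonic length, with Tmigd3 on the same strand. How such reads were assigned is not given in the sources used here; Tmigd3 itself had 3 counts over the collagenase libraries and 3 over the saline libraries. Adora3 is also known from mast cells: of 4 tested mast cell markers 0 passed by edgeR (0 at an unadjusted p under 0.05 and 0 by DESeq2). The 6 listed markers summed to 4.11 to 7.33 CPM in collagenase libraries and 3.72 to 8.0 CPM in saline libraries. The part of mast cells in the Adora3 level was not tested.

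The order of the members by the authors' deposited FPKM, which is scaled to gene length and so allows levels of different genes to be set side by side, was the same in both groups. In collagenase libraries P2ry12 was highest at 15.96 ± 0.678 FPKM, then P2rx4 at 10.4 ± 0.625, Gpr34 at 7.57 ± 1.21, P2ry13 at 5.09 ± 0.563, Entpd1 at 4.73 ± 0.734, P2rx7 at 3.72 ± 0.688, P2ry6 at 3.53 ± 0.971 and Adora3 at 0.697 ± 0.189 FPKM (SD, n = 3). In saline libraries the levels were 13.7 ± 3.60 FPKM for P2ry12, 7.65 ± 1.14 for P2rx4, 4.92 ± 1.16 for Gpr34, 4.19 ± 0.652 for P2ry13, 3.08 ± 0.268 for Entpd1, 2.63 ± 0.233 for P2rx7, 1.08 ± 0.242 for P2ry6 and 0.321 ± 0.0711 FPKM for Adora3 (SD, n = 3). After collagenase the libraries of P2ry13, Entpd1, P2rx7 and P2ry6 overlapped from each gene to the next in this order; after saline Gpr34 overlapped with P2ry13 and Entpd1 with P2rx7, while P2ry6 lay below P2rx7 without overlap. P2ry6 made up 8.18%, 6.21% and 5.90% of the summed FPKM of the 8 genes in the collagenase replicates, against 2.33%, 3.27% and 2.95% in the saline replicates. The share of P2ry12 was 29.5%, 31.0% and 32.3% in the collagenase replicates, against 33.7%, 32.7% and 42.0% in the saline replicates. Every collagenase share of P2ry6 was above the saline shares. Every collagenase share of P2ry12 was below them, but by a narrow gap, 32.3% in collagenase replicate 3 against 32.7% in saline replicate 2. A share depends on all 8 genes, whose summed FPKM averaged 51.7 after collagenase and 37.6 after saline. The mean FPKM of P2ry12 itself was not lower after collagenase. Such shares were not calculated for other genes.

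**Figure D2:**
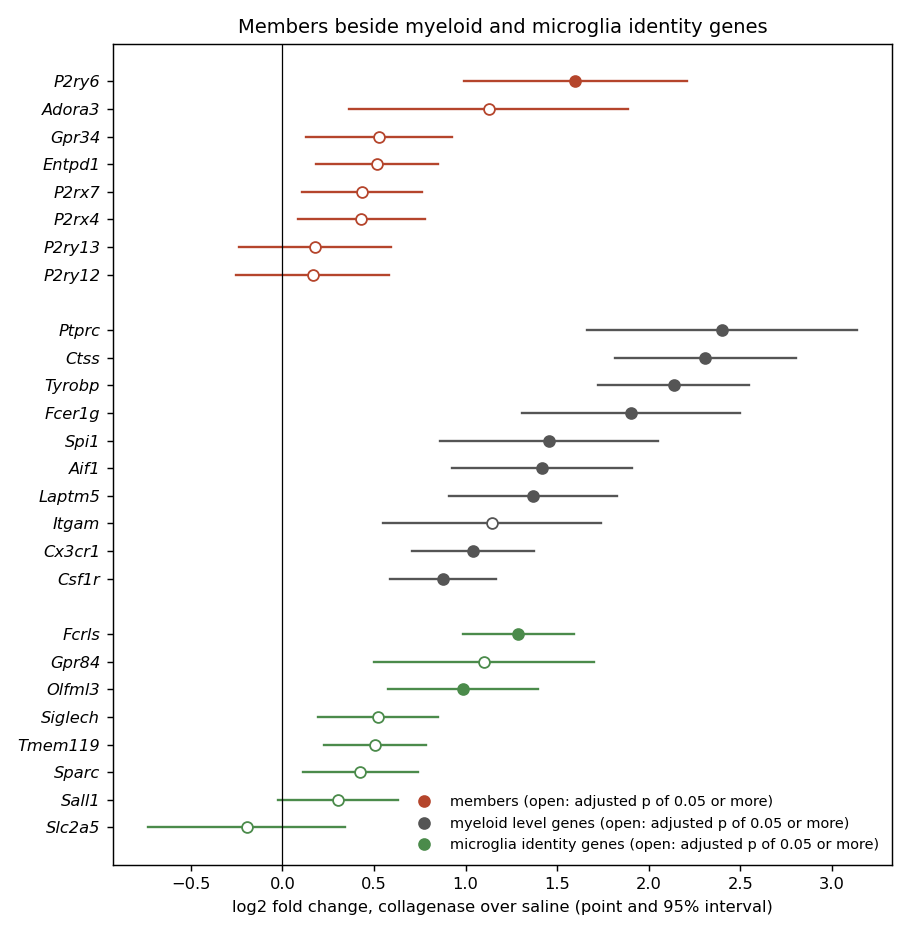
Log2 fold change of collagenase over saline (x axis) with its 95% interval for the 8 members, 10 genes of microglia and macrophages in general, and 8 genes of microglia identity; filled points have an edgeR adjusted p under 0.05. The point of P2ry6, at 1.60, lies among the general myeloid genes, which run from 0.88 (Csf1r) to 2.40 (Ptprc), while those of P2ry12 and P2ry13 lie at 0.17 and 0.18.

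RNA of myeloid cells was more abundant after collagenase. Of 10 listed genes shared by microglia and macrophages 9 rose, and their summed level was 511 to 763 CPM in collagenase libraries and 208 to 252 CPM in saline libraries. Csf1r, the growth factor receptor that microglia need, was higher by 0.88 on the log2 scale (SE 0.13), and Spi1, which encodes PU.1, by 1.45. Of 8 genes of microglia identity 2 rose by edgeR, Fcrls and Olfml3 (6 had an unadjusted p under 0.05 and 4 passed by DESeq2). The list summed to 1050 to 1308 CPM after collagenase and 769 to 930.3 CPM after saline. By far the largest part of it was Sparc, also made by vessel cells. Tmem119, Siglech and Sall1, which are close to specific for microglia in the brain, had log2 fold changes of 0.51, 0.52 and 0.30. They missed the threshold, with edgeR adjusted p values of 0.0907, 0.142 and 0.464. Tmem119 and Siglech were higher after collagenase without overlap, as were 10.1% of all tested genes, and Sall1 overlapped between the groups. Of 6 tested monocyte genes 2 rose, Lyz2 and Ccr2, and the list summed to 213 to 485 CPM in collagenase libraries and 33.1 to 40.7 CPM in saline libraries. Most of the collagenase sums was Lyz2, at 447, 269 and 183 CPM in replicates 1, 2 and 3. S100a4, Plac8, Ly6c2 and Vcan had log2 fold changes of 1.28, 0.72, 0.04 and 0.03 and did not pass. For border macrophages, 0 of 8 genes passed by edgeR (4 at an unadjusted p under 0.05 and 2 by DESeq2), with sums of 17.4 to 25.8 CPM after collagenase and 8.90 to 13.1 CPM after saline. All 5 T and NK cell genes rose, with sums of 3.94 to 8.86 CPM after collagenase and 0.0676 to 0.176 CPM after saline, and Cd3e, Cd3g, Cd8a and Nkg7 had 0 counts in saline. P2ry12 is also a platelet gene: of 4 tested platelet markers 0 passed by edgeR (0 at an unadjusted p under 0.05 and 0 by DESeq2), and the 5 listed summed to 2.50 to 4.17 CPM after collagenase and 1.47 to 3.43 CPM after saline. Of other cell types, 2 of 5 astrocyte genes rose (Gfap and Aqp4), 1 of 5 neuron genes fell (Slc17a7) and 0 of 6 oligodendrocyte lineage genes passed by edgeR (2 at an unadjusted p under 0.05 and 0 by DESeq2). The part of these cells in the members' levels was not tested.

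Set against 5 myeloid genes of the same library, the groups overlapped for P2ry6, while the ratios of the other 7 members in collagenase libraries lay below those in every saline library. The log2 ratio of P2ry6 to the geometric mean CPM of Csf1r, Itgam, Ptprc, Laptm5 and Aif1 was -2.24, -2.32 and -2.27 in the collagenase replicates, against -2.74, -2.33 and -2.16 in the saline replicates. The mean difference was 0.14 (exact permutation test, two-sided, p = 0.7), and it was -0.03 without saline replicate 1. For P2ry12 the ratio was -0.27, 0.10 and 0.31 in the collagenase replicates, against 1.17, 1.00 and 1.64 in the saline replicates, a mean difference of -1.22 with no overlap. The exact permutation p of 0.1 is the smallest that 3 against 3 libraries allow, and adjusted over the 8 members it was 0.114. The mean difference was -1.23 for P2ry13, -1.004 for P2rx7, -0.98 for P2rx4, -0.91 for Entpd1, -0.90 for Gpr34 and -0.45 for Adora3, each with no overlap and the same exact p. Such a ratio was lower without overlap in 90.3% of all tested genes, so the 7 of 8 members are near the background, and 0.923% were higher without overlap. The choice of genes set these values: against Csf1r alone, the mean difference for P2ry6 was 0.70 with no overlap (exact permutation p = 0.1), where 1.79% of all tested genes were higher without overlap. Against Csf1r alone it was -0.66 for P2ry12, -0.67 for P2ry13, -0.42 for P2rx4, -0.44 for P2rx7 and -0.35 for Entpd1, each lower with no overlap, as in 78.7% of all tested genes. Gpr34, at -0.34, and Adora3, at 0.11, overlapped between the groups on that measure.

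**Figure D3:**
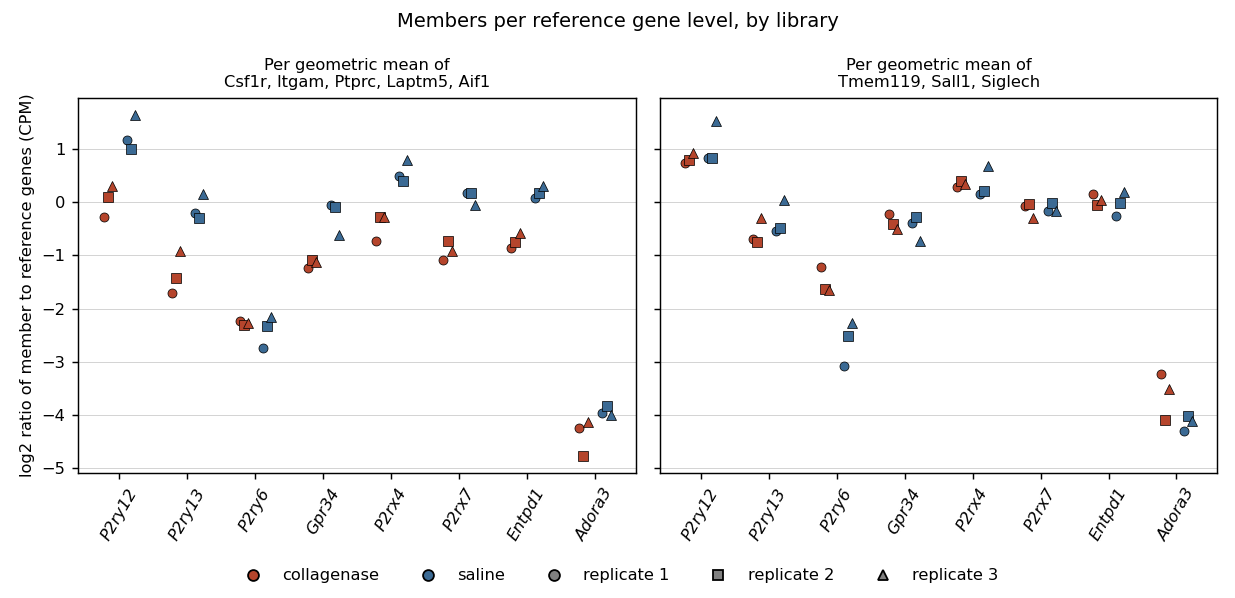
Log2 ratio (y axis) of each member to the geometric mean CPM of 5 general myeloid genes (left) and of 3 of the 8 microglia identity genes (right), 1 point per library, collagenase left of saline for each gene. On the left P2ry6 is the member whose groups overlap; on the right it is the member whose groups do not, with collagenase between -1.66 and -1.22 and saline between -3.08 and -2.27.

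Against Tmem119, Sall1 and Siglech, a reference taken from 8 identity genes after the values were seen, P2ry6 was the member whose groups lay apart. The log2 ratio of P2ry6 was -1.22, -1.63 and -1.66 in the collagenase replicates, against -3.08, -2.51 and -2.27 in the saline replicates, a mean difference of 1.12 without overlap (exact permutation p = 0.1, the smallest possible). On this measure 3.05% of all tested genes were higher and 57.6% lower without overlap. The other 7 members overlapped between groups: the mean difference was -0.24 for P2ry12, -0.25 for P2ry13, -0.0011 for P2rx4, -0.02 for P2rx7, 0.08 for Gpr34, 0.07 for Entpd1 and 0.53 for Adora3. Of the identity genes left out of this reference, Fcrls and Olfml3 rose more than those in it, with log2 fold changes of 1.29 and 0.99. That of Gpr84 lay between them, that of Sparc was 0.43 and that of Slc2a5 was -0.19. Whether P2ry6 lay apart from the genes left out was not tested.

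Measured directly against P2ry12 in the same library, P2ry6 was higher by 1.36 on the log2 scale: the ratio was -1.96, -2.42 and -2.58 in the collagenase replicates, against -3.91, -3.34 and -3.80 in the saline replicates. The groups did not overlap, with an exact permutation p of 0.1 and 0.35 when adjusted over the 7 ratios. P2rx4 was the other member whose ratio to P2ry12 did not overlap, with a mean difference of 0.24, and 4.04% of all tested genes were higher without overlap on this measure. For P2rx7, Gpr34, Entpd1, Adora3 and P2ry13 the mean differences were 0.22, 0.32, 0.31, 0.78 and -0.01 and the groups overlapped. Without saline replicate 3 they were -0.04 for P2rx7, -0.04 for Gpr34 and 0.19 for Entpd1. On deposited FPKM in place of CPM, the mean difference was 0.20 for P2rx4 (exact permutation p = 0.2). It was 1.37 for P2ry6, 0.35 for Entpd1 and 0.67 for Adora3, each with an exact permutation p of 0.1, the smallest possible. The share of all tested genes that lay apart on FPKM ratios was not calculated. Which members stood apart beside P2ry6 thus depended on the measure.

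Without saline replicate 3, 4 members passed, P2ry12, P2ry6, P2rx4 and Entpd1, and 2.86% of 17594 tested genes passed as higher. P2ry13, P2rx7, Gpr34 and Adora3 passed in none of the 15 alternative fits tried, and all 8 log2 fold changes were above 0 in each of them.

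**Figure D4:**
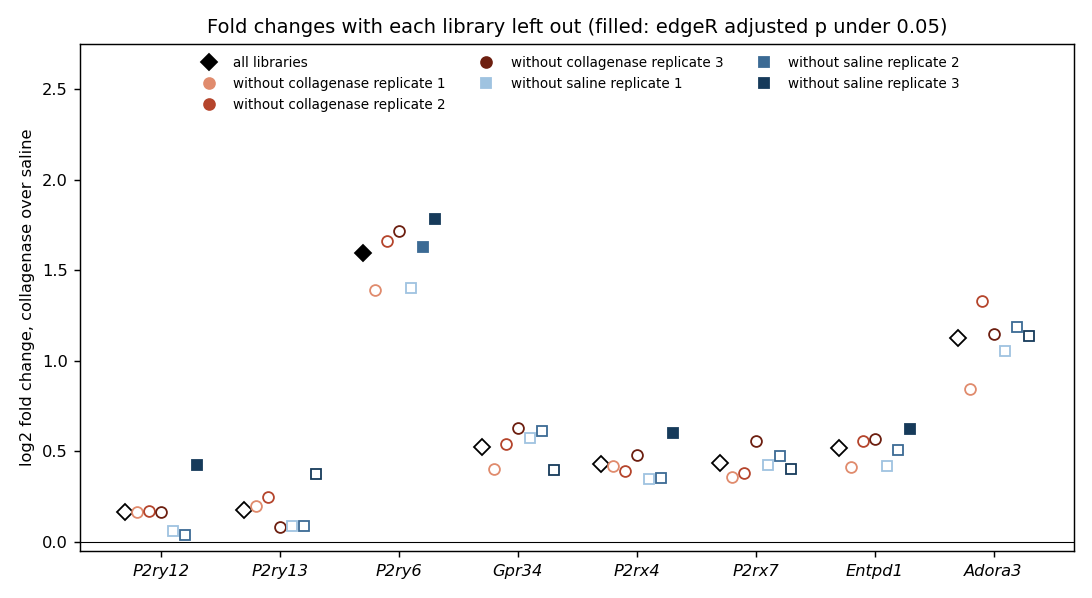
Log2 fold change of collagenase over saline (y axis) of each member with all 6 libraries (diamond) and with each library left out; filled symbols have an edgeR adjusted p under 0.05. P2ry6 stays between 1.39 and 1.78, and P2ry12, P2rx4 and Entpd1 are filled only without saline replicate 3.

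Most other purinergic genes did not pass the test. Of 42 listed receptors, ectonucleotidases, transporters, release channels and lysophosphatidylserine genes outside the 8, 39 were tested; 2 rose, 0 fell and 37 did not pass, with a median log2 fold change of 0.08. Of all tested genes 2.12% passed as higher. The genes that rose were Pla1a, above, and P2ry10, a lysophosphatidylserine receptor gene of lymphocytes. P2ry10 had 53 counts over the collagenase libraries and 2 over the saline libraries, both in replicate 1, a ratio of 24.2 with an exact 95% counting interval of 6.39 to 205. Of 9 tested P2X and P2Y receptors 1 rose, and the others included P2rx6, which encodes an ATP-gated channel subunit, with a log2 fold change of 0.31 and P2ry1, an ADP receptor also found in astrocytes, with 0.07. Of 3 other adenosine receptors 0 passed; Adora1, the main inhibitory adenosine receptor of neurons, measured 191 ± 11.95 CPM after collagenase and 205 ± 5.92 CPM after saline (SD, n = 3 per group); 0 of the 3 had an unadjusted p under 0.05 and 0 passed by DESeq2.

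Of 16 tested ectonucleotidases, nucleoside enzymes and transporters 0 passed by edgeR (1 at an unadjusted p under 0.05 and 0 by DESeq2). Entpd2, an ATPase of astrocytes, measured 15.4 ± 1.04 CPM after collagenase and 10.8 ± 1.52 CPM after saline (SD, n = 3 per group), with a log2 fold change of 0.50 (SE 0.14, edgeR adjusted p 0.167). Nt5e, which turns AMP into adenosine, measured 6.19 ± 0.715 CPM after collagenase and 5.65 ± 0.374 CPM after saline, and Adk, which removes adenosine inside cells, 80.6 ± 1.94 CPM after collagenase and 86.9 ± 8.06 CPM after saline (SD, n = 3 per group); neither passed. Of 7 release genes 0 passed by edgeR (2 at an unadjusted p under 0.05 and 0 by DESeq2). The nearest was Calhm2, a channel gene, with a log2 fold change of 0.82 (SE 0.27, edgeR adjusted p 0.240), and Panx1, a channel that lets ATP out of cells, measured 11.2 ± 1.14 CPM after collagenase and 11.3 ± 1.31 CPM after saline.

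Among 17 genes listed as effectors or regulators of the receptors, 6 rose and 0 fell: Rac2, Irf8, Pik3cg, Fermt3, Irf5 and Pycard. In this list 10 had an unadjusted p under 0.05 and 9 passed by DESeq2, and 2.12% of all tested genes passed as higher by edgeR. The median log2 fold change was 1.05 in this list and 1.43 in the list of general myeloid genes. Whether these genes rose apart from myeloid RNA was not tested. Irf8, a transcription factor that raises P2rx4 in spinal microglia of injured mice by way of Irf5, measured 16.2 ± 5.23 CPM after collagenase and 4.91 ± 0.721 CPM after saline (SD, n = 3 per group). It was higher by 1.72 on the log2 scale (SE 0.24, edgeR adjusted p 0.0121). Irf5 had a log2 fold change of 0.95 (SE 0.17, edgeR adjusted p 0.0315), while P2rx4 itself had 0.43 and did not pass. Bdnf, the growth factor released downstream of P2rx4 in that setting, measured 11.8 ± 1.07 CPM after collagenase and 14.1 ± 4.90 CPM after saline (SD, n = 3 per group) and did not pass. Kcnk13, the potassium channel that keeps microglia scanning, measured 16.6 ± 2.90 CPM after collagenase and 17.6 ± 0.926 CPM after saline, with a log2 fold change of -0.09 (SE 0.15). Among the inflammasome genes linked to P2rx7, Pycard rose by 1.05 on the log2 scale (SE 0.20, edgeR adjusted p 0.0361). Il1b, at 2.06 (SE 0.47, edgeR adjusted p 0.0724), and Nlrp3, at 0.55 (SE 0.40, edgeR adjusted p 0.678), did not pass.

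The genes whose log2 CPM followed each member most closely over the 6 libraries were named by Pearson r among 12832 genes with a mean log2 CPM of at least 1. The 6 libraries are those of both groups, and r is given as a description. Among so many genes the highest r over 6 libraries can be near 1 by chance, so no shared role can be read from it. For P2ry6 they were Zfp788, Pou2f2 and Lrp5 (r from 0.995 to 0.997), for P2ry12 Hadh, Ttc12 and Zfp287 (0.992 to 0.998), and for P2ry13 Zfp53, Ficd and Ccdc65 (0.990 to 0.999). For Entpd1 they were Mmp14, Fgf2 and Sgsh (0.993 to 0.999), for P2rx4 Zfp937 and Lima1 (0.996 and 0.993), and for P2rx7 Il10ra, Gpr157 and Iqgap1 (0.983 to 0.988). For Gpr34 they were Cd9, Cxcl12 and Tgfbr1 (0.990 to 0.993), and for Adora3 Anxa2, Cep192 and Pla2g7 (0.981 to 0.985).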

How the data were processed

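RNA of VPL/VPM tissue was captured by its poly(A) tail and copied with random hexamers, per the labels' protocols, which name no strand-marking step. FastQC, HISAT2 2.2.1, StringTie, DESeq2 and GRCm38 are listed in the submitters' processing notes, with no roles. Annotation release, strand setting and multi-mapped reads: not given in the sources used here. In the tables deposited by the authors, each library has, for 26554 features, whole-number counts that are not normalized and FPKM values, per the file headers; between 10 and 30 lines of spilled text per table were skipped. Groups and replicate numbers are those of the sample titles. Symbols were matched by Ensembl identifier (22022 of 22036), positions came from GENCODE M21 (GRCm38) and promoters from RefSeq (GRCm38.p6).

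The test on counts was edgeR 4.0.16 (R 4.3.3): filterByExpr, TMM factors of 0.898 to 1.063, and a robust, two-sided quasi-likelihood F-test adjusted by Benjamini-Hochberg over 17240 genes. The SE is the log2 fold change divided by the square root of F. FPKM values as deposited were used for levels of different genes and, as log2(FPKM + 0.1) or log2(FPKM + 1), in limma 3.58.1 as an alternative. Other alternatives were DESeq2 1.42.0, other scalings and filters, a replicate block and leaving out each library. Ratios used log2(CPM + 0.1) and exact permutation tests over libraries (scipy 1.17.1). The steps were tested on simulated data. The members and gene lists were chosen with earlier results of these data known. Genes at the members' loci and up to 4 per list with the smallest p were named; others were named for their role after their values were seen. Some genes that these rules and lists take are not reported here; the myeloid list and the reference of the ratios were calculated without 1 of them, a change made after the values were seen. The ratio of count to FPKM of a member, with each library scaled by its median ratio over features, was constant to within 1.005-fold (P2ry13) to 1.32-fold (Adora3), against a median of 1.016-fold over features with at least 20 counts in every library.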

Additional observations from a re-analysis of the deposited data

How the results depend on the processing

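In all 15 alternatives each of the 8 members kept a positive log2 fold change. P2ry6 passed in 10 of them; with a replicate block its log2 fold change was 1.60 with an edgeR adjusted p of 0.0664, so that 0 members passed. Same-numbered libraries deviated from their group means with correlations of 0.0439, 0.107 and 0.203 for numbers 1, 2 and 3. Collagenase replicates 2 and 3 correlated best with the saline library of their own number, and collagenase replicate 1 with saline replicate 2 (0.0759). Correlations this weak cannot show whether the numbers mark pairs, and the main fit does not treat them as pairs. Over fits without a library the members passing ranged from 0 to 4, and the log2 fold change from 1.39 to 1.78 for P2ry6, 0.0386 to 0.43 for P2ry12, 0.08 to 0.37 for P2ry13, 0.35 to 0.60 for P2rx4, 0.36 to 0.56 for P2rx7, 0.40 to 0.63 for Gpr34, 0.41 to 0.62 for Entpd1 and 0.85 to 1.33 for Adora3. With DESeq2 the next member after P2ry6 was Entpd1, with an adjusted p of 0.0646. Fits without a library hold fewer samples; other causes of lost and gained calls were not tested.

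Over all genes 366 passed as higher and 50 as lower. These counts were 608 and 180 with DESeq2, 221 and 12 with limma on log2(FPKM + 0.1) without a filter, and ranged from 81 to 503 and from 4 to 414 without a library. The count of lower genes was also 29 with total counts only and 24 with limma on log2(FPKM + 0.1) and on log2(FPKM + 1). The median log2 fold change of all tested genes was -0.02 with TMM factors and 0.08 on log2(FPKM + 0.1), a shift to bear in mind for members near 0.

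Among ratios, that of P2ry13 to P2ry12 changed sign, at 0.0361 with FPKM and from -0.0951 to 0.0532 without a library, and those of P2rx7 and Gpr34 to P2ry12 ranged from -0.0389 to 0.39 and from -0.0416 to 0.54 without a library, the sign turning without saline replicate 3. Ratios to the general myeloid genes ranged from -0.0286 to 0.262 without a library for P2ry6, the sign turning without saline replicate 1, and with Csf1r alone the value was 0.70 for P2ry6, -0.66 for P2ry12, -0.67 for P2ry13, -0.42 for P2rx4, -0.44 for P2rx7, -0.35 for Entpd1 and -0.34 for Gpr34. They changed sign for Adora3 with Csf1r alone (0.11), and with Tmem119, Sall1 and Siglech for Gpr34 (0.0794), Entpd1 (0.0696) and Adora3 (0.53). Exact tests on 3 against 3 libraries cannot go below 0.1, and with a library left out they are weaker still. For Adora3, 25 to 101 counts per library limit precision.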
